A study of Mus musculus with 32 samples.

Results

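Pre-mRNA splicing factor genes were followed through the first wave of mouse spermatogenesis. The genes were the protein-coding genes of GENCODE mouse release M21 whose symbols name 10 families: SR proteins (Srsf), hnRNP proteins, SF3A and SF3B subunits, Sm, U1 and U2 snRNP proteins (Snrp), U2AF subunits, PRPF proteins, PTB proteins, CELF, RBFOX and MBNL proteins. The rule used symbols only and no measured value. It named 83 genes, of which 78 were among the 20368 genes of the juvenile gene table, where a gene needed at least 3 TPM (the unit in which RSEM gives a level, scaled for transcript length and for the total of each sample) in at least 1 mouse. Celf3, Celf4, Rbfox1 and Rbfox3 stayed under that level, and Snrpn was not analysed here.

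Germ cells were isolated from single C57BL/6J males at 8 days post-partum (dpp, 3 mice) and at 10, 12, 14, 16 and 18 dpp (5 mice at each age), and poly-A RNA of each mouse was sequenced as 1 sample. No group carried a mutation or a treatment, so age was the only labelled difference. The question was how the RNA of these genes moved as meiotic prophase cells made up more of the germ cells. In the authors' cell counts, spermatogonia fell in share but stayed the majority of germ cells at every age. A further set of 4 samples, each pooled from 6 adult males of 9 weeks, held pachytene and diplotene spermatocytes enriched by sedimentation at unit gravity (the STA-PUT method), and stands in a table of its own. These are mixed cell suspensions, and a lower level can mean fewer cells of a type or less RNA per cell, which bulk samples cannot tell apart.

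The spliceosome removes introns in steps. The U1 snRNP binds the 5′ splice site, the U2AF subunits bind the 3′ splice site, the U2 snRNP with its SF3A and SF3B proteins binds the branch site, and the U4/U6.U5 tri-snRNP with PRPF proteins forms the catalytic centre. SR proteins and hnRNP proteins bind exons and introns and shift the choice of splice sites, and PTB, CELF, RBFOX and MBNL proteins do so in a tissue-dependent manner. Testis and brain are known for large numbers of alternative transcripts. Many SR protein and hnRNP genes also limit their own level by splicing part of their RNA into forms with a premature stop codon, which are degraded by nonsense-mediated decay.

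The labelled germ cell origin was set against marker genes. Of 5 germ cell markers 2 were higher and 1 lower at 18 than at 8 dpp. They summed to 590 to 733 TPM per mouse at 8 dpp and 1299 to 1608 TPM at 18 dpp. In adult cells they summed to 2246 to 2325 TPM. Pachytene markers, 6 of 6 measured higher at 18 than at 8 dpp, summed to 46.8 to 56.5 TPM per mouse at 8 dpp, 2547 to 4656 TPM at 18 dpp and 9625 to 9848 TPM in adult cells. The pachytene marker Hist1h1t was under 1 TPM in every mouse at 18 dpp. In the authors' antibody staining, late pachytene cells with H1T, the protein of this gene, were abundant by 16 to 18 dpp. The low poly-A RNA level is thus not a measure of those cells. Spermatogonium markers, 6 of 6 lower, went from 925 to 991 TPM at 8 dpp to 409.7 to 584 TPM at 18 dpp. Markers of Sertoli cells, somatic cells of the tubule that the label does not name, were present at every age. Of these, 7 of 8 were lower and 1 higher at 18 dpp, and their sum went from 6904 to 7778 TPM at 8 dpp to 3259 to 4244 TPM at 18 dpp and 294 to 435 TPM in adult cells. Peritubular markers summed to 1051 to 1160 TPM at 8 dpp, 524 to 1034 TPM at 18 dpp and 5.57 to 10.7 TPM in adult cells, where Myh11, Cnn1 and Des were under 1 TPM. Leydig markers summed to at most 472 TPM at 8 or 18 dpp and macrophage and endothelial markers to less, and round spermatid markers summed to 872 to 1189 TPM in adult cells. Red blood cell markers summed to 243 to 681 TPM at 8 dpp and 250 to 367 TPM at 18 dpp. At 18 dpp, mice 4 and 5 stood apart from mice 1 to 3, with 2673 and 2547 TPM of pachytene markers against 4502 to 4656 TPM, and 4196 and 4244 TPM of Sertoli markers against 3259 to 3403 TPM. The counts of calls by age are therefore also given without mice 4 and 5. The library barcodes of 8 to 12 dpp were used again at 14 to 18 dpp, so the comparisons of 18 with 8 dpp and of 14 with 12 dpp, and the transcript tests of 16 and 18 against 8 and 10 dpp, set 1 set of libraries against the other, while the steps from 8 to 12 dpp and from 14 to 18 dpp lie within them. TPM holds no read counts, so the depth and the counting error are unknown, and the spread between mice was the measure of error.

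Exons that differ between transcripts described further on are shown here first, read from GRCm38 with the M21 annotation. Inclusion of single exons was not tested. In U2af1, which encodes the small U2AF subunit that touches the AG of the 3′ splice site, the transcripts U2af1-201 and U2af1-202 each carry 1 of 2 neighbouring exons of 67 bases. These lie on the minus strand at chr17:31651646-31651712 and chr17:31652502-31652568, are wholly coding, and are identical at 44 of 67 positions (65.7%). Capitals mark the 23 positions that differ.
U2af1-201 exon: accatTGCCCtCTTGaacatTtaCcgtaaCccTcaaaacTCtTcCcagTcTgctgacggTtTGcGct
U2af1-202 exon: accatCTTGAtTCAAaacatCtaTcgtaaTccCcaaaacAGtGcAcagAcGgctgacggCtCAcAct

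In Hnrnpa3, a coding exon of 81 bases at chr2:75662845-75662925 on the plus strand belongs to Hnrnpa3-204 and is absent from Hnrnpa3-202. In Ptbp1, coding exons of 78 bases at chr10:79860117-79860194 and of 34 bases at chr10:79862014-79862047 on the plus strand belong to Ptbp1-216. Both are absent from Ptbp1-201, a transcript annotated for decay, and skipping of the 34-base exon is known as the way by which PTB protein lowers its own RNA. These exons are shown in capitals between 15 bases of each neighbouring exon.
Hnrnpa3-204 exon: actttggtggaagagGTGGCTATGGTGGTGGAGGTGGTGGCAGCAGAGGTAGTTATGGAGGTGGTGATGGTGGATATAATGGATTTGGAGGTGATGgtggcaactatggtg
Ptbp1-216 exon of 78 bases: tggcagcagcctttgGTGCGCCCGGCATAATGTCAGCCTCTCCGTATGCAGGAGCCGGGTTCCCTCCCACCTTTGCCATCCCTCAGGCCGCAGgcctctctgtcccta
Ptbp1-216 exon of 34 bases: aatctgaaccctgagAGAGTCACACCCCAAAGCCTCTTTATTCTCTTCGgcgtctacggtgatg

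In Srsf6, an exon of 268 bases that starts at chr2:162932815 on the plus strand is part of Srsf6-201, annotated for decay, and absent from the coding transcript Srsf6-203. It is printed up to the stop codon it brings into the reading frame, at chr2:162932815-162932966, with that codon in capitals.
Srsf6-201 exon, to its stop codon: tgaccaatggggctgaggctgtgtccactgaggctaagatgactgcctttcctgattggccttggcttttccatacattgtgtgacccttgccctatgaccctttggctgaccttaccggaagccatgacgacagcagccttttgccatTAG

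Between 8 and 18 dpp some tissue-dependent regulators and hnRNP genes and the low gene Srsf12 moved by more than 1 on the log2 scale, while the Snrp, SF3A, SF3B, U2AF and PRPF genes of the core spliceosome all lay between -0.60 (Prpf19) and 0.46 (Snrpc). Ptbp2 rose 3.14-fold on the scale of TPM + 1, while Hnrnpa1, Ptbp3, Rbfox2, Celf2 and Hnrnpdl each fell to under 0.5 of their level. Of the 78 genes, 21 were higher and 28 lower at 18 dpp at an adjusted p under 0.05 in limma, where 31.8% of all genes tested were higher and 36.3% lower. The shares of these genes, 26.9% and 35.9%, were thus near those of all genes. The sizes differed more than the counts. The median of the absolute log2 change was 0.24 for the 78 genes and 0.61 for all 20368 genes, 39 of 78 moved by less than 0.25 on the log2 scale (50%, against 22.0% of all genes), and 7 by more than 1 (8.97%, against 28.7%). Srsf12 and Celf5 passed the filter only at 16 and 18 dpp, so their rises follow in part from the filter. Celf6 passed it only at 16 dpp and not through its values at 18 dpp, and the part of the filter in its rise was not tested. Srsf12, Celf5 and Celf6 are counted among the 21 higher genes, and Srsf12 also among the 7. Splicing factor genes were also expressed at a higher level, with a median of 114 TPM against 13.1 TPM. Among 3952 protein-coding genes of at least 50 TPM on average, the median absolute change was 0.52, with 25.9% under 0.25 and 21% over 1. A difference among the 6 ages was called in 54 of 78 genes, where 77.6% of all genes were called.

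**Figure D1:**
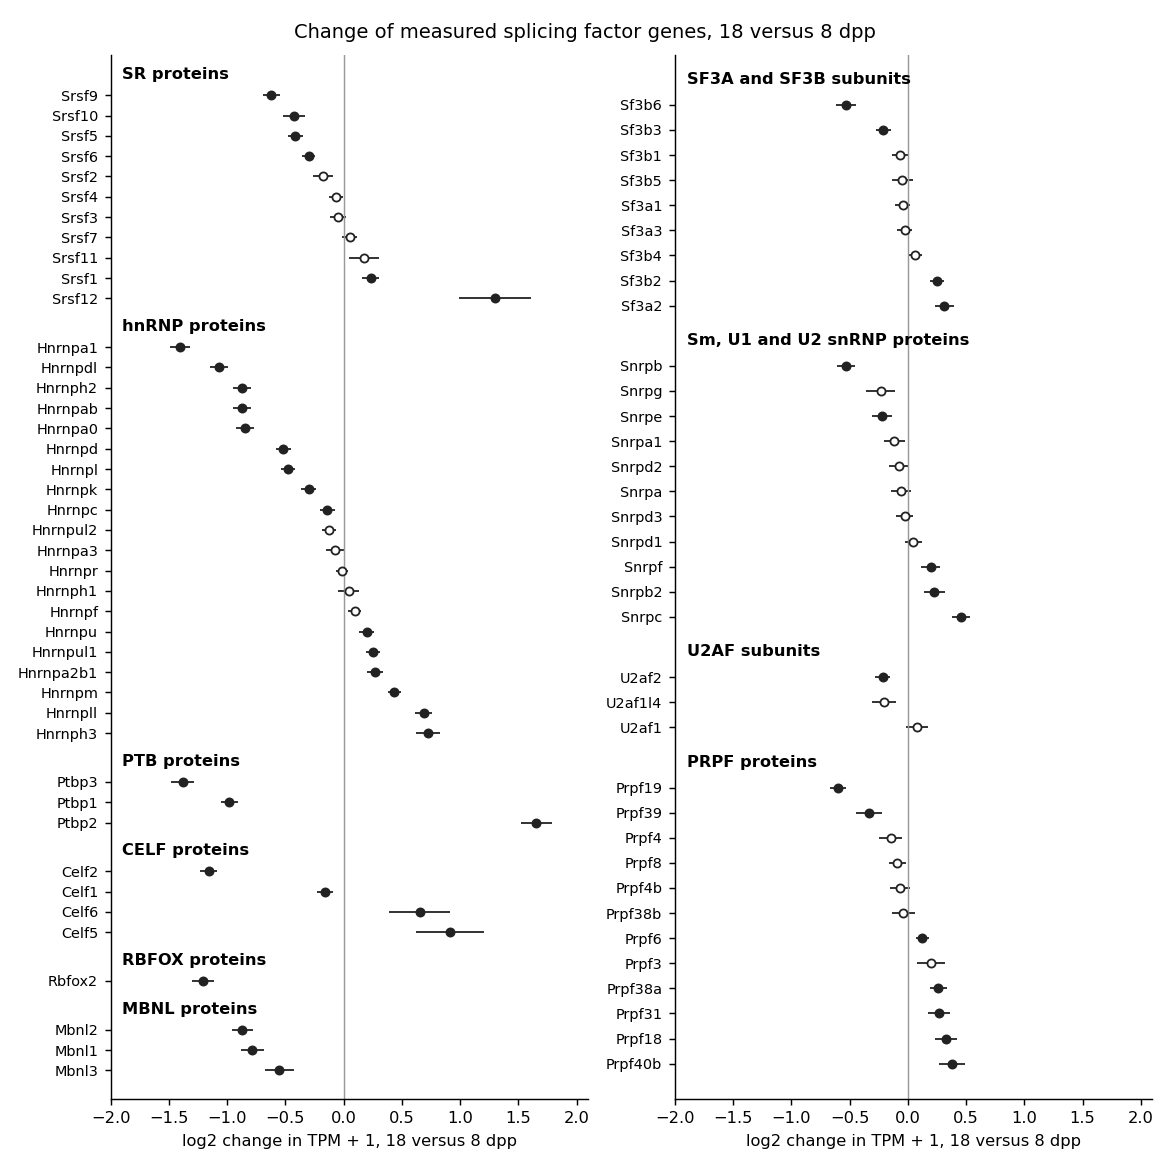
Log2 change in TPM + 1 from 8 to 18 dpp of the measured splicing factor genes, 1 of which is not drawn (points, with bars for the standard error in limma), grouped by family, with filled points for genes past an adjusted p of 0.05 and open points for the rest. Ptbp2 lies farthest to the right at 1.65 and Hnrnpa1 farthest to the left at -1.41, and the core spliceosome genes of the right panel lie between -0.60 and 0.46.

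The direction of small changes depended on scaling. The median log2 change of all genes from 8 to 18 dpp was -0.09 as deposited, 0.05 after median-of-ratios scaling and -0.26 after quantile normalization, and the 78 genes had medians of -0.07, 0.11 and -0.15. The counts of higher and lower genes were 30 and 22 under median-of-ratios scaling and 14 and 35 under quantile normalization. Of the 21 higher genes 13 were called under all 3 scalings, and of the 28 lower genes 21 were. Srsf12, which passed the filter only through late mice, is among the 13. Without mice 4 and 5 at 18 dpp, an alternative chosen after seeing the data, 19 genes were higher and 32 lower.

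The PTB proteins are repressors of exon inclusion that bind pyrimidine-rich RNA. Ptbp1, the widely expressed member (ENSMUSG00000006498, chr10:79854427-79864771), had 437, 465 and 432 TPM in the 3 mice at 8 dpp, and 220.3, 208, 209.8, 241 and 247 TPM in mice 1 to 5 at 18 dpp. The groups did not overlap, and Ptbp1 fell by 0.98 on the log2 scale (standard error 0.0732, adjusted p = 4.58e-12, limma). Ptbp2, the member known from neurons and spermatocytes (ENSMUSG00000028134, chr3:119718742-119784466), had 31.7, 26.6 and 33.9 TPM at 8 dpp and 98.0, 106, 108, 88.4 and 92.2 TPM at 18 dpp. Every mouse at 18 dpp was thus above every mouse at 8 dpp, and Ptbp2 rose by 1.65 (standard error 0.133, adjusted p = 2.06e-11, limma). Ptbp3, the remaining paralog, known from blood cells, had 86.1, 76.6 and 77.2 TPM at 8 dpp and 27.0, 30.6, 31.3, 26.8 and 35.1 TPM at 18 dpp. It fell by 1.38 with no overlap (standard error 0.101, adjusted p = 3.00e-12, limma). All 3 kept their direction and their call under the 3 scalings. Ptbp1 shares its locus with the opposite-strand genes Plppr3, E130317F20Rik and Gm17134, and with no strand-specific counting stated their reads cannot be told apart.

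Ptbp2 made up a growing share of the PTB RNA. Its percentage of the summed TPM of Ptbp1, Ptbp2 and Ptbp3 averaged 5.54 ± 0.791 over the 8 dpp mice (SD, n = 3). In the older mice (mean ± SD, n = 5 per age) it was 5.56 ± 0.493 by 10 dpp, 7.50 ± 0.724 by 12 dpp, 9.82 ± 1.19 by 14 dpp, 17.4 ± 4.38 by 16 dpp and 27.9 ± 3.03 by 18 dpp. In adult pachytene and diplotene cells it was 54.7 ± 2.96 (SD, n = 4). The steps at which the paralogs passed the test differed. Ptbp1 was lower at 12 than at 10 dpp (log2 change -0.27, adjusted p = 0.00251, limma), when the change of Ptbp2 did not pass the test, and a test of the difference in timing was not made. From 14 to 16 dpp Ptbp2 rose by 0.66 (adjusted p = 1.10e-04, limma) from 36.1 to 46.0 TPM across mice to 53.4 to 91.5 TPM.

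**Figure D2:**
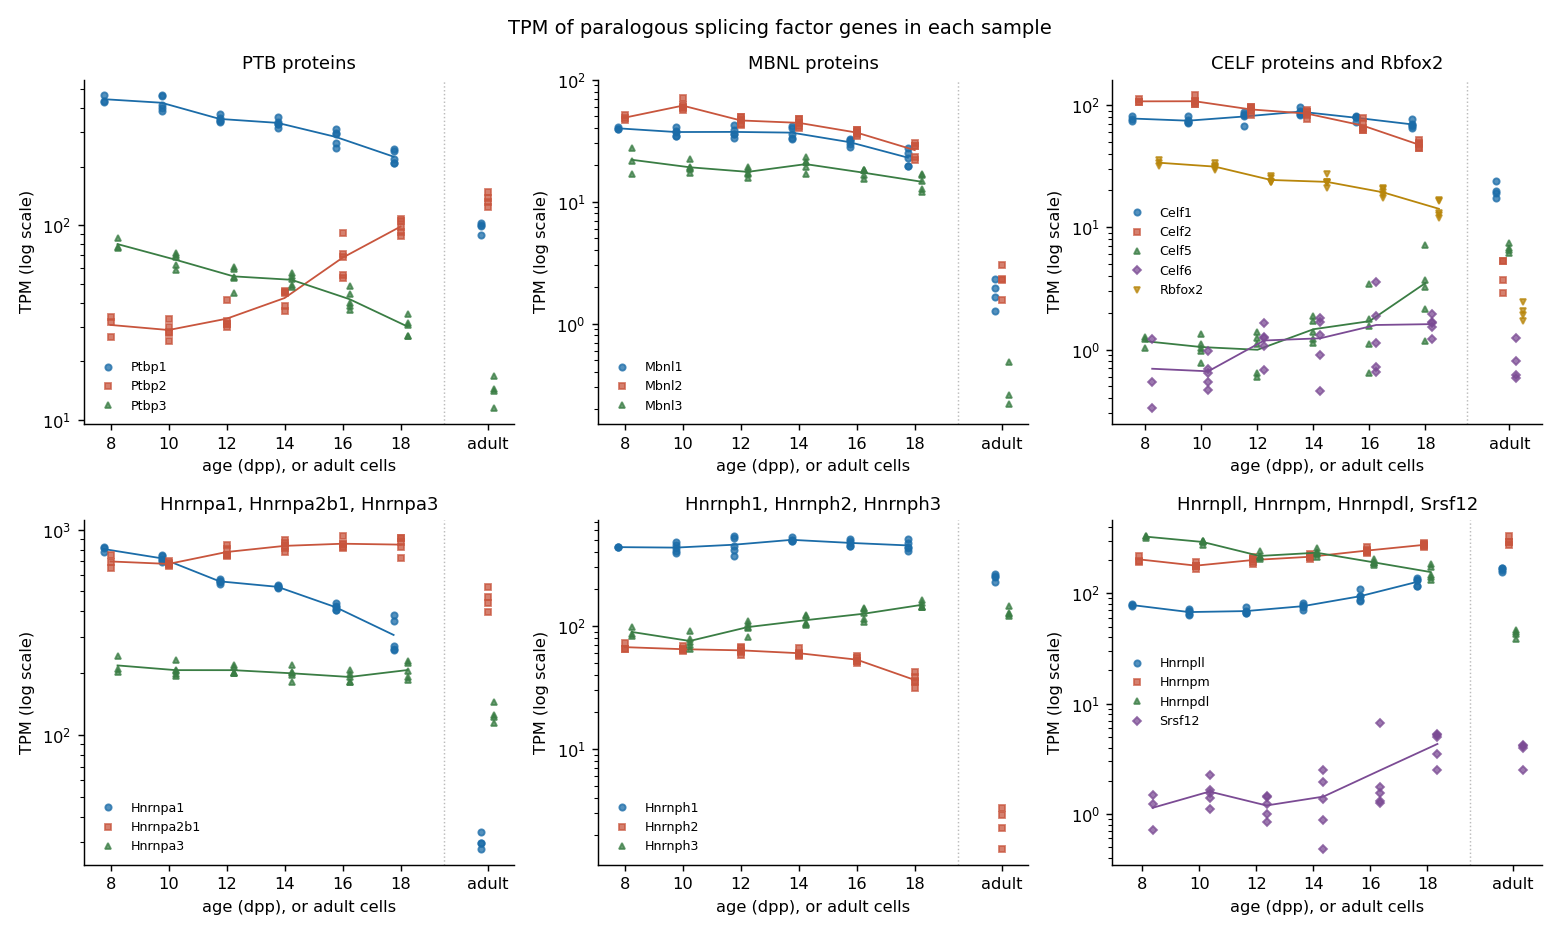
TPM (log axis) of paralogous splicing factor genes in each mouse at 8 to 18 dpp and in each adult pachytene/diplotene sample, with lines through the means of the juvenile ages. Ptbp2 lies above Ptbp1 only in the adult samples, which come from a separate table, and values of 0, such as Mbnl3 in adult sample 2, cannot be drawn on this axis.

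The MBNL, CELF and RBFOX proteins set tissue patterns of exon choice, MBNL and CELF proteins often in opposite directions on the same exons. All 3 MBNL genes fell from 8 to 18 dpp under all 3 scalings. Mbnl2 had 46.4, 51.8 and 48.5 TPM at 8 dpp and 28.6, 21.9, 23.1, 30.5 and 28.4 TPM at 18 dpp, with no overlap, a fall of 0.87 (standard error 0.0919, adjusted p = 3.58e-09, limma). From 8 to 10 dpp Mbnl2 was higher by 0.32 with no overlap, but did not pass the test as deposited (adjusted p = 0.0961, limma). Under median-of-ratios scaling 1 of 3 MBNL genes was called higher at that step. Mbnl1 had 41.1, 39.7 and 39.2 TPM at 8 dpp and 22.9, 19.8, 19.5, 25.3 and 27.5 TPM at 18 dpp, a fall of 0.78 (standard error 0.0990, adjusted p = 8.55e-08, limma). The X-linked Mbnl3 (ENSMUSG00000036109, chrX:51117269-51206532) had 16.9, 21.7 and 27.5 TPM at 8 dpp, a wider spread than its paralogs, and 12.0, 14.8, 12.8, 16.5 and 16.8 TPM at 18 dpp. Its groups lay close but did not overlap, with a fall of 0.55 (standard error 0.127, adjusted p = 3.95e-04, limma).

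Celf2, best known from muscle, brain and blood cells, had 105, 105 and 111 TPM at 8 dpp and 49.2, 44.5, 44.4, 47.6 and 51.3 TPM at 18 dpp. These groups did not overlap, and it fell by 1.16 (standard error 0.0750, adjusted p = 2.82e-13, limma). Celf1, the widely expressed member, went from 74.5 to 80.5 TPM at 8 dpp to 64.7 to 76.5 TPM at 18 dpp with overlapping groups, and its call (log2 change -0.16, adjusted p = 0.0461, limma) was lost when any 1 of 15 mice was left out, among them mice 1 and 3 at 8 dpp and mice 1 to 4 at 18 dpp, and under median-of-ratios scaling, where the change was 0.02. Celf5 and Celf6 were low genes, with 1.02 to 1.26 and 0.33 to 1.22 TPM at 8 dpp and 1.18 to 7.17 and 1.22 to 1.97 TPM at 18 dpp. Their log2 changes were 0.91 and 0.65, and neither was called after quantile normalization. Celf5 entered the table only at 16 and 18 dpp, so its higher values follow in part from the filter. Celf6 entered only at 16 dpp, and the part of the filter in its change at 18 dpp was not tested. The call of Celf6 was lost without mouse 1 or 2 at 8 dpp or mouse 1 at 18 dpp, and without mice 4 and 5 at 18 dpp. Celf3 had at most 1.30 TPM and Celf4 at most 2.56 TPM in any juvenile mouse.

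Rbfox2, which binds UGCAUG and is the widely expressed RBFOX gene, had 35.8, 31.7 and 33.7 TPM at 8 dpp and 13.1, 12.7, 11.9, 16.3 and 16.8 TPM at 18 dpp. The groups did not overlap, and it fell by 1.21 (standard error 0.0960, adjusted p = 1.68e-11, limma). The neuronal genes Rbfox1 and Rbfox3 had at most 0.46 and 2.01 TPM in any juvenile mouse.

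The falls of these regulators from 8 to 18 dpp went with lower Sertoli, peritubular and spermatogonium marker sums, but the paths between differed. The Sertoli sum averaged 7266, 7181 and 7103 TPM at 8, 10 and 12 dpp. Ptbp1, Ptbp3, Celf2, Rbfox2 and Mbnl2 were called lower from 10 to 12 dpp. The peritubular sum averaged 1101 TPM at 8 dpp, 1436 TPM at 14 dpp and 741 TPM at 18 dpp. Of 5 peritubular markers 1 was called lower from 8 to 18 dpp. Among the mice at 18 dpp, mice 4 and 5, with the higher Sertoli, peritubular and spermatogonium sums, also had more Ptbp1, Mbnl1 and Rbfox2 than each of mice 1 to 3, and a lower Ptbp2 share of the PTB RNA (24.8 and 24.6%, against 28.4 to 30.9%). Hnrnpa1, Hnrnpdl, Hnrnph2 and Snrpb, described next, split in the same way. Ptbp3, Celf2 and Mbnl2 did not, since mouse 4 in Ptbp3 and Celf2 and mouse 5 in Mbnl2 lay below mouse 1. The part of the marked cells and of mice 4 and 5 in these levels was not tested.

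hnRNP proteins coat nascent RNA and many repress nearby splice sites. Of 20 hnRNP genes, 9 were lower and 6 higher at 18 dpp, with 8 lower and 9 higher under median-of-ratios scaling and 10 lower and 6 higher after quantile normalization. Within the A group, Hnrnpa1 (ENSMUSG00000046434, chr15:103240432-103246692), an abundant repressor of exons, had 825, 813 and 777 TPM at 8 dpp and 260.4, 272, 261, 358 and 383 TPM at 18 dpp. It fell by 1.41 with no overlap (standard error 0.0857, adjusted p = 8.67e-14, limma). This was the largest fall among the 78 genes as deposited, by a margin over Ptbp3 below its standard error, and after quantile normalization Ptbp3 fell more (1.44 against 1.35). Its close paralog Hnrnpa2b1 was at 755, 653 and 693 TPM at 8 dpp and at 725, 906, 821, 907 and 870.2 TPM at 18 dpp, and rose by 0.27 with overlapping groups (adjusted p = 7.50e-04, limma). Hnrnpa3 was at 202 to 241 TPM at 8 dpp and 184 to 229 TPM at 18 dpp, and did not pass the test (adjusted p = 0.387, limma). Hnrnpa1 was thus 46.8% ± 1.61 of the summed TPM of the 3 genes in 8 dpp mice (SD, n = 3), 22.5% ± 2.70 in 18 dpp mice (SD, n = 5) and 4.97% ± 0.745 in adult cells (SD, n = 4). Hnrnpa1 has many processed copies in the genome, among which RSEM divides reads, so its level is less certain than its paralogs'.

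The H group binds G-runs and can enhance or repress exons. Hnrnph1 did not pass the test, with 436.6, 435.5 and 439 TPM at 8 dpp and 407, 433, 437, 505 and 475 TPM at 18 dpp (adjusted p = 0.697, limma). The X-linked Hnrnph2 (ENSMUSG00000045427, chrX:134601179-134607060), which encodes a nearly identical protein, had 72.0, 65.0 and 64.6 TPM at 8 dpp and 31.1, 35.5, 34.8, 38.3 and 41.9 TPM at 18 dpp. It fell by 0.87 with no overlap (standard error 0.0742, adjusted p = 5.89e-11, limma), and most of this came from 16 to 18 dpp, the largest fall of that step at 0.54. Hnrnph3, a shorter member, had 98.2, 83.5 and 86.2 TPM at 8 dpp and 142, 162, 154, 143 and 141 TPM at 18 dpp, a rise of 0.73 with no overlap (standard error 0.102, adjusted p = 5.12e-07, limma). It overlaps Rufy2 on the opposite strand. Hnrnph2 and Hnrnph3 were 11.3% and 15% of the summed TPM of the group at 8 dpp, 5.70% and 23.4% at 18 dpp and 0.652% and 34.0% in adult cells.

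Hnrnpdl, a relative of the RNA stability factor Hnrnpd, had 329, 321 and 331 TPM at 8 dpp and 133, 148, 141, 173 and 185 TPM at 18 dpp and fell by 1.07 (standard error 0.0793, adjusted p = 3.90e-12, limma). Hnrnpab, Hnrnpa0, Hnrnpd and Hnrnpl fell by 0.87, 0.85, 0.52 and 0.48. Hnrnpll, known for exon repression in lymphocytes, had 80.7, 77.9 and 76.7 TPM at 8 dpp and 133, 132, 137, 117 and 118 TPM at 18 dpp and rose by 0.69 with no overlap (standard error 0.0720, adjusted p = 3.12e-09, limma). Hnrnpm rose by 0.44, and Hnrnpul1 by 0.25. Hnrnpk, a poly-C binding protein and the most abundant gene of the family, was at 1122, 956 and 1009 TPM at 8 dpp and 789.7, 833, 806, 834 and 913 TPM at 18 dpp, lower by 0.30 (adjusted p = 1.57e-04, limma), but its change was 0.02 after quantile normalization. Hnrnpk overlaps Rmi1 on the opposite strand, and Hnrnpm overlaps March2 on its own strand.

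SR proteins bind exonic enhancers and recruit U1 and U2AF. Of 11 SR genes, 4 were lower (Srsf9, Srsf10, Srsf5 and Srsf6) and 2 higher (Srsf1 and Srsf12) at 18 dpp, with 4 lower and 4 higher under median-of-ratios scaling and 5 lower and 1 higher after quantile normalization. Srsf5, the most abundant, had 625, 627 and 648 TPM at 8 dpp and 440.1, 471, 468, 499.5 and 497 TPM at 18 dpp, and fell by 0.41 with no overlap (standard error 0.0672, adjusted p = 4.72e-06, limma). The path was not even, since Srsf5 rose by 0.22 from 10 to 12 dpp (adjusted p = 0.00833, limma). Srsf9 fell by 0.62 from 262 to 170.4 TPM on average. Srsf2, Srsf3, Srsf4, Srsf7 and Srsf11 did not pass the test, with log2 changes from -0.18 to 0.17. Srsf12, a weakly expressed SR protein, had 0.71, 1.22 and 1.48 TPM at 8 dpp and 3.47, 5.23, 5.35, 2.53 and 5.00 TPM at 18 dpp (log2 change 1.30, adjusted p = 5.93e-04, limma). It entered the table only through mice at 16 and 18 dpp, so a difference was bound to be found. Mouse 1 at 16 dpp had 6.63 TPM of it and the other 4 mice of that age 1.25 to 1.74 TPM.

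The Snrp genes had log2 changes between -0.53 and 0.46. Of 11 Snrp genes, 3 were higher and 2 lower, with 4 higher and 1 lower under median-of-ratios scaling and 1 higher and 2 lower after quantile normalization. Snrpb, one of the Sm ring proteins common to the spliceosomal snRNPs, had 432.5, 432 and 439.5 TPM at 8 dpp and 271, 283, 274, 329.6 and 352 TPM at 18 dpp. It fell by 0.53 with no overlap (standard error 0.0773, adjusted p = 8.53e-07, limma). Snrpc, the U1 protein that touches the 5′ splice site, rose by 0.46 from 131 to 181 TPM on average (adjusted p = 9.60e-06, limma). Of the other Sm genes, Snrpf was higher (log2 change 0.20, adjusted p = 0.0326, limma) and Snrpe lower (-0.22, adjusted p = 0.0266, limma), neither under all 3 scalings. Snrpd1, Snrpd2, Snrpd3 and Snrpg did not pass the test, with log2 changes from -0.23 to 0.04. Snrpe and Snrpg have near-identical copies in the genome and are uncertain for that reason.

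Of 9 SF3A and SF3B genes, 2 were higher and 2 lower, with 3 higher and 1 lower under median-of-ratios scaling and 2 higher and 4 lower after quantile normalization. Sf3b2, which contacts the RNA next to the branch site, had 174, 165 and 168 TPM at 8 dpp and 211, 217, 207, 189.8 and 182 TPM at 18 dpp. It rose by 0.25 with no overlap (standard error 0.0590, adjusted p = 5.08e-04, limma), as did Sf3a2 by 0.31. Sf3b6, the subunit nearest the branch point, fell by 0.53, and Sf3b1, the large scaffold, went from 139 to 133 TPM on average and did not pass the test (adjusted p = 0.428, limma). The summed TPM of the 9 genes was 964 ± 17.6 in 8 dpp mice (SD, n = 3) and 967 ± 15.4 in 18 dpp mice (SD, n = 5).

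Of the 3 U2AF genes, U2af2, the large subunit that binds the pyrimidine tract, had 248, 257 and 268 TPM at 8 dpp and 206, 219, 196, 242 and 249.7 TPM at 18 dpp. It was lower by 0.22 with overlapping groups (adjusted p = 0.00451, limma), but by 0.04 under median-of-ratios scaling, where it was not called and U2af1 was called higher. Of 13 PRPF genes, which serve the tri-snRNP and other stages, 5 were higher (Prpf40b, Prpf18, Prpf31, Prpf38a and Prpf6, by 0.12 to 0.38) and 2 lower (Prpf19 by 0.60 and Prpf39 by 0.33). Median-of-ratios scaling gave 6 higher and 1 lower, quantile normalization 3 higher and 4 lower, and Prpf31, Prpf6 and Prpf39 were not called under all 3 scalings. Prpf8, the protein at the catalytic centre, had 144, 139 and 151 TPM at 8 dpp and 146, 134, 133, 129.9 and 134 TPM at 18 dpp and did not pass the test (adjusted p = 0.276, limma).

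The changes were gathered in 3 of the 5 steps of age. From 8 to 10 dpp 0 genes were called higher and 0 lower in limma, where 0.977% and 0.226% of all genes were called, and 2 and 11 had an unadjusted p under 0.05. From 10 to 12 dpp 5 were higher (12.0% of all genes) and 15 lower (9.39%), led by Hnrnph3 at 0.37 and Hnrnpdl at -0.42. From 12 to 14 dpp 0 were higher and 0 lower in limma, where 0.157% and 0.0147% of all genes were called, and 11 and 1 had an unadjusted p under 0.05. From 14 to 16 dpp 3 were higher (12.7% of all genes) and 13 lower (11.3%), led by Ptbp2 at 0.66 and Hnrnpa1 at -0.33. From 16 to 18 dpp 14 were higher (23.4%) and 22 lower (30.6%). Hnrnph2 had the largest fall at -0.54. The higher genes include Srsf12 (0.75) and Celf5 (0.67), which passed the filter only through mice of these ages, and the next largest rise was that of Ptbp2 at 0.55. Without mice 4 and 5 at 18 dpp, the counts of higher and lower genes were 1 and 1 from 8 to 10 dpp, 8 and 18 from 10 to 12 dpp, 0 and 0 from 12 to 14 dpp, 3 and 14 from 14 to 16 dpp and 13 and 29 from 16 to 18 dpp.

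As deposited, Ptbp1, Ptbp3, Hnrnpa1, Hnrnpdl, Celf2, Rbfox2, Mbnl2 and Srsf9 were lower in each of these 3 steps, and Hnrnpm was higher in each. Under median-of-ratios scaling 0 of 3 MBNL genes were called from 14 to 16 dpp, so Mbnl2 lost that call. The SR genes called lower at that step went from 3 to 1. After quantile normalization 0 of 11 SR genes were called lower from 10 to 12 dpp, so Srsf9 lost its call there. The 16 to 18 dpp split depended on scaling, with 34 higher and 12 lower under median-of-ratios scaling and 8 higher and 33 lower after quantile normalization. Some calls of single steps rested on 1 mouse. From 10 to 12 dpp, Ptbp3 was not called without mouse 1 or 3 at 10 dpp or mouse 1 at 12 dpp, and Celf2 not without mouse 1 of either age, and Hnrnpa2b1 not without mouse 3 at 12 dpp. From 14 to 16 dpp, Mbnl1, Mbnl2, Rbfox2, Celf1 and Srsf6 each lost their call when at least 1 mouse was left out, and from 16 to 18 dpp Celf5, Srsf12, Hnrnph3 and Srsf6 did. The count of lower genes from 10 to 12 dpp was 10 without mouse 1 at 10 dpp, the count of higher genes was 3 without mouse 3 at 12 dpp, and the count of lower genes from 14 to 16 dpp was 8 without mouse 1 at 16 dpp.

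**Figure D3:**
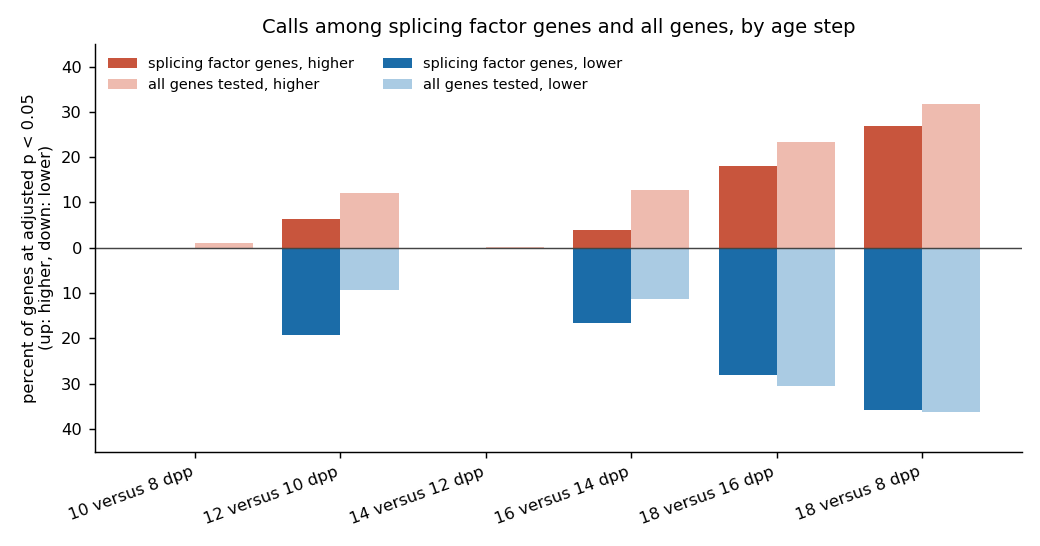
Percentage of the 78 splicing factor genes and of all 20368 genes tested that were called higher (bars up from 0) or lower (bars down from 0) at an adjusted p under 0.05 in each 2-day step and from 8 to 18 dpp. The steps from 8 to 10 and from 12 to 14 dpp hold 0 splicing factor genes, and the step from 16 to 18 dpp holds 14 higher and 22 lower.

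Other genes of the pathway, 105 listed and 99 measured, were set beside these families. The genes named here were chosen after their values were seen. The listed genes were tested on the values as deposited only. How their counts depend on scaling was not tested, and small changes may depend on it as in the splicing factor genes. From 8 to 18 dpp 25 were higher and 43 lower, where 31.8% of all genes tested were higher and 36.3% lower, with a median log2 change of -0.12 against -0.09 over all genes. Of 11 other proteins of the U2 and branch site stage 10 were lower, among them Sf1, which binds the branch site first, and Puf60, a U2AF relative (falls of 0.47 and 0.42). Of 24 proteins of the Prpf19-containing complex and the catalytic steps 13 were lower and 4 higher. Of 12 further U1, U5 and minor snRNP proteins 4 were higher and 0 lower. Among these Snrnp35, a protein of the minor U11 snRNP, had 14.0, 11.4 and 12.7 TPM at 8 dpp and 73.0, 69.3, 55.7, 43.8 and 44.9 TPM at 18 dpp (log2 change 2.07, adjusted p = 1.90e-11, limma). Of 7 LSm proteins 1 was higher and 2 lower, and of 12 exon junction and SR-related proteins 2 were higher and 4 lower.

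Of 6 measured kinases that phosphorylate SR proteins 2 were higher and 1 lower. Srpk1 had 68.1, 62.5 and 63.7 TPM at 8 dpp and 311, 276, 279.7, 184 and 177 TPM at 18 dpp (log2 change 1.87, adjusted p = 1.49e-11, limma), with mice 4 and 5 below mice 1 to 3. Of 27 further splicing regulators 11 were higher and 13 lower. Khdrbs3, a STAR family RNA-binding protein known from testis and brain, had 19.7, 19.7 and 21 TPM at 8 dpp and 107, 111, 111, 89.9 and 78.8 TPM at 18 dpp, the largest rise of the list (log2 change 2.24, standard error 0.135, adjusted p = 7.27e-14, limma). Nono, a paraspeckle protein gene, had 215, 227 and 209 TPM at 8 dpp and 84.6, 86.6, 86.9, 118 and 126 TPM at 18 dpp, the largest fall of the list (1.12, standard error 0.0943, adjusted p = 4.72e-11, limma). In both genes the groups did not overlap, and mice 4 and 5 at 18 dpp were nearer to 8 dpp than mice 1 to 3.

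The transcripts of the splicing factor genes were compared between the late mice (16 and 18 dpp, 10 mice) and the early mice (8 and 10 dpp, 8 mice), as percentages of the gene's TPM. These groups come from different sets of libraries, so age and library set cannot be told apart here. Only the Mbnl3 transcripts passed the threshold of an adjusted p under 0.05 and 20 percentage points, which made 2 of 298 transcripts tested in 55 genes, where 2.11% of all transcripts and 4.81% of all genes were called. Mbnl3-201 was at 21.8% in early and 1.5% in late mice, and Mbnl3-203 at 57.5% and 79.0% (standard error 5.52, adjusted p = 0.0148, limma). The early values were widely spread, with Mbnl3-201 at 22.5, 38.0 and 21.3% at 8 dpp and at 0, 13.4, 0, 43.0 and 35.9% in mice 1 to 5 at 10 dpp, and neither transcript was called without mouse 4 at 10 dpp.

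At a threshold of 10 points, 11 transcripts of 7 genes were called, where 6.19% of all transcripts and 13.9% of all genes were. The U2af1 transcripts with the exon pair shown above were among them. The share of U2af1-202 was 7.85, 10.1 and 12.4% at 8 dpp and 7.73 to 12.5% at 10 dpp. It ranged over 10.1 to 21.3% in 12 dpp mice and 15.1 to 17.8% in 14 dpp mice, then over 12.7 to 23.4% in 16 dpp mice and 18.4 to 29.0% in 18 dpp mice. Each of the 10 late mice was thus above each of the 8 early mice, and the mean went from 9.64% to 21.3% (standard error of the difference 1.66, adjusted p = 1.39e-04, limma). The level of the gene as a whole did not pass the test as deposited (adjusted p = 0.452, limma). In Hnrnpa3, whose level also did not pass, Hnrnpa3-204, with the exon of 81 bases, rose from 19.7% to 39.1% (standard error 2.84, adjusted p = 1.79e-04, limma). Hnrnpa3-204 was at 9.77 to 25.1% in early mice and 30.3 to 53.6% in late mice, without overlap, and Hnrnpa3-202 went from 53.8% to 36.0%. Hnrnpa3-203, not among the 11, went from 23.1% to 17.9% (adjusted p = 0.0148, limma), and whether it carries that exon was not examined. Of the others, U2af1l4-201 went from 22.4% to 38.7%, and Sf3a2-202 from 1.82% to 13.5%. The Ptbp1 transcripts did not reach 10 points. Ptbp1-216, with both exons shown above, went from 31.6% to 39.7% (8.11 points, adjusted p = 9.28e-04, limma). Ptbp1-201 without them went from 30.1% to 25.4% (adjusted p = 0.0717, limma), and the coding Ptbp1-202 from 25.3% to 22.5% (adjusted p = 0.245, limma). An adjusted p under 0.05 alone was reached by 48 of the 298 transcripts and by 3460 of all 26345.

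Transcripts annotated for nonsense-mediated decay were tested as a share of each gene's TPM in 28 splicing factor genes. In 5 the share differed between late and early mice, where 7.71% of all genes did. It was higher in 4, where 3.61% of all genes were higher. The largest was Srsf6, where Srsf6-201 with the stop codon shown above was 43.7, 42.9 and 41.9% of TPM at 8 dpp and 46.6 to 48.2% at 10 dpp. In the late mice it was 51.4 to 59.1% (16 dpp) and 56.7 to 69.7% (18 dpp). Early and late mice did not overlap, and the mean rose by 13.6 points (standard error 2.03, adjusted p = 4.13e-04, limma), while the TPM of Srsf6 fell by 0.30 on the log2 scale from 8 to 18 dpp. The share rose by 11.6 points in Hnrnpll (adjusted p = 0.0190), by 4.66 points in Srsf2 (adjusted p = 0.0130) and by 1.2 points in Snrpb (adjusted p = 0.00630), and fell by 7.01 points in Hnrnph3 (adjusted p = 0.0128, all limma). Early and late mice overlapped in Hnrnpll, Srsf2 and Hnrnph3, and did not in Snrpb. In Hnrnpll the share was 17.8 to 19.7% at 8 dpp and 8.10 to 18.6% at 10 dpp. It was 14.9 to 30.0% at 16 dpp and 29.5 to 33.8% at 18 dpp. The gene level of Hnrnpll was higher at 18 dpp and that of Hnrnph3 as well, so the decay share and the level moved the same way in one and in opposite ways in the other. Srsf3, with the second highest decay share, was at 38.4% early and 36.2% late and did not pass (adjusted p = 0.532, limma). The percentages depend on how RSEM divided reads among transcripts that share most of their exons, and Srsf2 overlaps Mettl23 and Mfsd11 on the opposite strand.

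**Figure D4:**
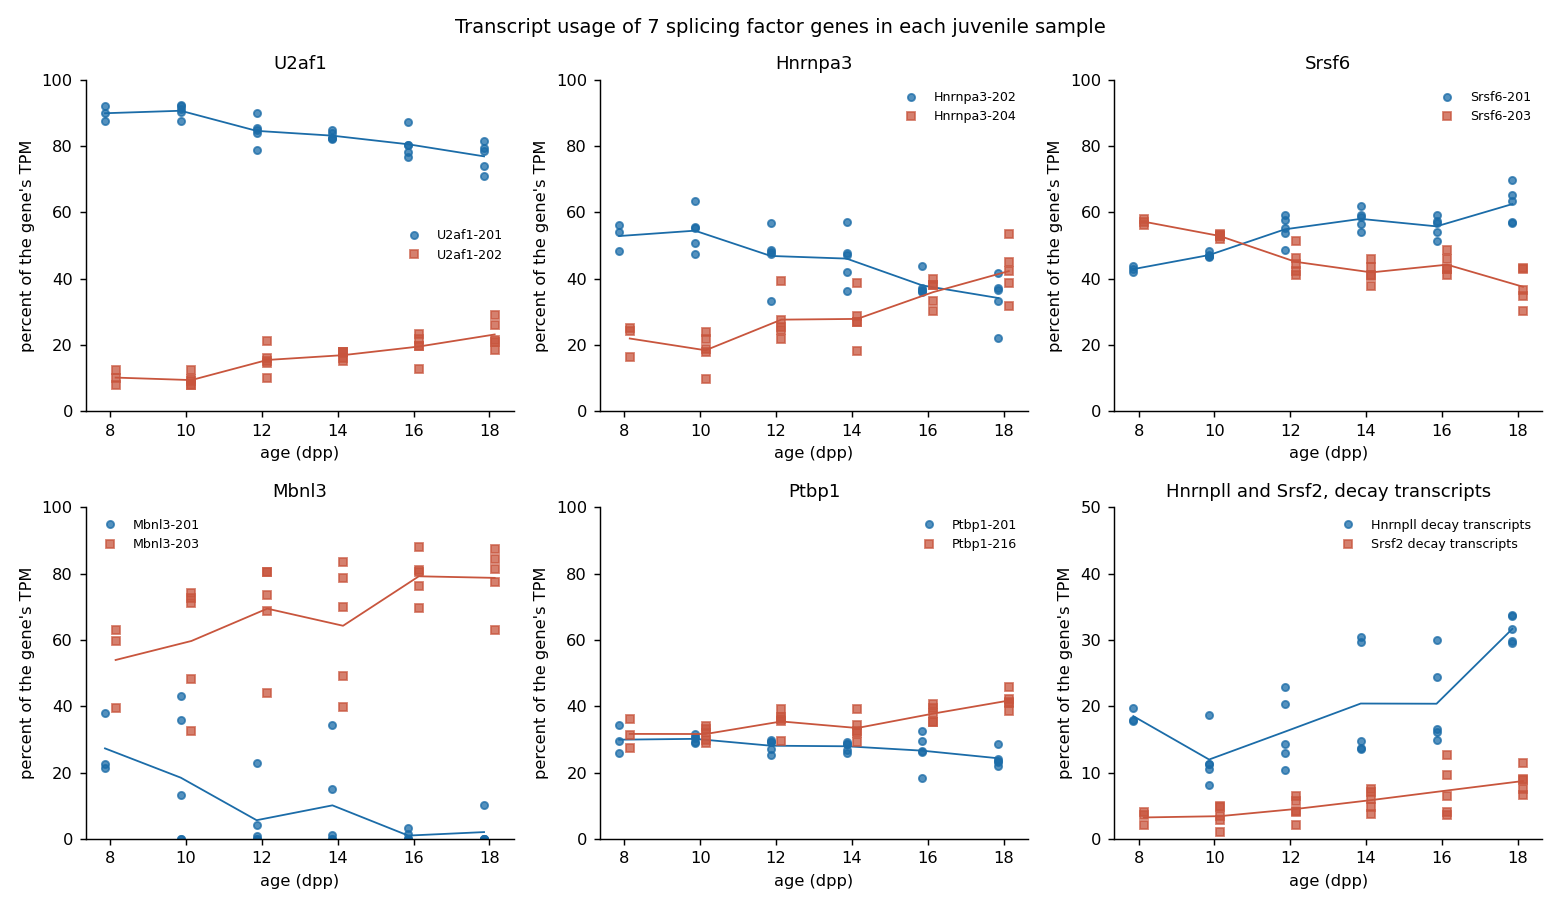
Percentage of the gene's TPM in single transcripts or in decay transcripts of 7 splicing factor genes, in each mouse from 8 to 18 dpp, with lines through the age means. The share of U2af1-202 goes from 7.73 to 12.5% in the early mice to 12.7 to 29.0% in the late mice, and Srsf6-201 from 41.9 to 48.2% to 51.4 to 69.7%.

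Levels in adult pachytene and diplotene cells were set side by side with those at 18 dpp, with no test since the tables were made separately. Of 75 splicing factor genes with at least 10 TPM in either, 24 had an adult mean of at most 0.5 of the 18 dpp mean (32.0%, against 38.8% of all genes of that level) and 0 had at least 2 times that mean (against 19.0%). The median ratio was 0.65, against 0.75 over all genes. The summed TPM of the 78 genes was 14960 ± 331 in 8 dpp mice (SD, n = 3), 13000 ± 585.5 in 18 dpp mice (SD, n = 5) and 8897 ± 331 in adult cells (SD, n = 4).

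Among the genes far lower in adult cells were regulators that had already fallen by 18 dpp. Mbnl3 had 0.26, 0, 0.22 and 0.48 TPM in the 4 adult samples, 0.0165 of its 18 dpp mean, which was the smallest ratio. Hnrnph2 had 3.29, 1.53, 2.88 and 2.28 TPM (ratio 0.0687), Mbnl1 1.26 to 2.33 TPM (0.0786), Mbnl2 1.57 to 3.01 TPM (0.0869), Celf2 2.88 to 5.28 TPM (0.0903), and Rbfox2 1.72 to 2.47 TPM (0.145). Both X-linked and autosomal genes are among these. Hnrnpa1 had 29.9, 33.7, 27.7 and 29.7 TPM (0.0985), and went from rank 11 among 82 splicing factor genes at 18 dpp to rank 62. Some core spliceosome genes were lower as well, among them Snrpg (0.193), Snrpb (0.370), Sf3b3 (0.394) and U2af2 (0.403). Snrpg had not passed the test by age and has near-identical copies in the genome. Other core genes, such as Snrpc (1.35) and Sf3b2 (1.28), were higher. The Sertoli and peritubular marker sums in adult cells, 294 to 435 and 5.57 to 10.7 TPM, were also far below those at 18 dpp, and their part in these low values was not tested.

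A higher adult mean was found in 13 of the 75 genes, where 4986 of all 12174 genes of that level had one. Of the 13, 8 had ranges apart from those at 18 dpp, a count not made over all genes. Ptbp2 had 138, 131, 148 and 124 TPM (ratio 1.38), above every mouse at 18 dpp, and Ptbp1 102, 100.1, 89.6 and 98.7 TPM, below every one. In adult cells Ptbp2 was thus above Ptbp1 in each of the 4 samples, the reverse of every juvenile mouse. Hnrnpll at 157 to 169 TPM, Sf3b2 at 250.5 to 265 TPM, and Snrpc at 245 TPM on average were also above 18 dpp. Celf5, at 6.17 to 7.43 TPM in the adult samples, overlapped the mice at 18 dpp.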

How the data were processed

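Poly-A RNA of 28 juvenile samples and 4 adult pools was sequenced as paired ends. The authors aligned reads with Bowtie 1.0.0 to Ensembl, NONCODE and piRNA precursor transcripts and estimated levels with RSEM 1.2.8. The transcript table and the adult table were deposited by the authors as TPM. The juvenile gene table was deposited by the authors as a score, which summed to 14108255 or more per sample and equals exp(log2(TPM + 1)) - 1, and it was turned back into TPM, within 0.03 TPM of the summed transcripts for each splicing factor gene. Strand-specific counting is not given in the sources used here. The design assumed TPM in that table, and the test was kept.

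Levels were tested as log2(TPM + 1) with limma 3.58.1 (R 4.3.3) in 1 fit over the 6 ages and 20368 genes, with Benjamini-Hochberg adjustment over all genes and a call at an adjusted p under 0.05. A fold change on this scale understates the change of low genes. Transcript usage (percent of the gene's TPM) and decay share were tested with limma between 16 and 18 dpp and 8 and 10 dpp, with a call for usage at 20 percentage points. Transcripts were matched to M21 by ID for 485 of 488. Each sample is a separate mouse, or a separate pool in adults, and groups come from the labels. Scripts were tested on simulated data.

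The members and lists were chosen with earlier results of these data known. Genes were named by a rule: in each family the highest mean, the 6 largest rises and falls from 8 to 18 dpp among calls, the largest of each step, all PTB, MBNL, CELF and RBFOX genes, the hnRNP A and H and Snrpb paralogs, X-linked genes, the 6 largest called transcripts, the 4 largest decay shares, and the extreme adult ratios. The result of 1 gene under this rule is not reported here by name, and the counts include it. Other genes were named after their values were seen. Alternatives were median-of-ratios scaling, quantile normalization, other pseudocounts and filters, a replicate block, a term for mice numbered 1 to 3 against the later ones, usage thresholds and scales, and leaving out each mouse. Replicate numbers were checked as pairs: over 57 pairs of same-numbered mice the correlation of deviations was -0.248 to 0.253, with 3 over 0.1.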

Additional observations from a re-analysis of the deposited data

Results flagged for a closer look

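Over 33 named genes and 198 groups of 4 or 5 samples, 12 single samples lay far from the others of their group by Dixon's test, which flags about 1 in 20 groups by chance. Ptbp2 was at 41.05 TPM in mouse 3 at 12 dpp, with the nearest mouse at 32.1 TPM. Srsf12 was at 6.63 TPM in mouse 1 at 16 dpp against 1.74 TPM or less in the others, and at 2.48 TPM in adult sample 4 against 3.99 TPM or more. Hnrnpk was at 744 TPM in mouse 1 at 12 dpp, below the nearest at 872.5 TPM, and Hnrnph1 at 531 TPM in mouse 3 at 14 dpp, above the nearest at 497 TPM. Sf3b2 was at 137 TPM in mouse 3 at 10 dpp (nearest 153 TPM), Prpf8 at 146 TPM in mouse 1 at 18 dpp (nearest 134 TPM), and Celf1 at 72.9 TPM in mouse 4 at 16 dpp (nearest 79.0 TPM). The others concern Celf3 and Rbfox1, which were low in every sample. Celf3 was listed at 0 in mouse 5 at 12 dpp (nearest 0.49 TPM), and Rbfox1 had 0.46 TPM in mouse 6 at 14 dpp, 0.06 TPM in mouse 3 at 16 dpp and 0.33 TPM in adult sample 1, where all other samples of these groups were at 0.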

How the results depend on the processing

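Of 2545 alternative values of the 67 called changes of named genes, 2434 kept their direction and call, 108 kept only their direction and 3 reversed. Under median-of-ratios scaling Celf1 moved by 0.0163 from 8 to 18 dpp and Srsf6 by 0.0282 from 16 to 18 dpp, and after quantile normalization Hnrnpk moved by 0.0177 from 8 to 18 dpp. Median-of-ratios scaling gave 34 higher and 12 lower genes from 16 to 18 dpp, 8 lower from 14 to 16 dpp and 1 higher from 8 to 10 dpp. Quantile normalization gave 8 higher from 16 to 18 dpp, and no filter 8 lower from 14 to 16 dpp. A usage threshold of 10 points gave 11 transcripts. Without mice 4 and 5 at 18 dpp, an alternative chosen after seeing the data, 1 gene was higher and 1 lower from 8 to 10 dpp and 8 were higher from 10 to 12 dpp. The cause was not tested in any of these. Leaving out 1 mouse at a time gave 51 to 58 genes with any difference among ages, 16 to 21 higher and 24 to 31 lower from 8 to 18 dpp, 0 from 8 to 10 and from 12 to 14 dpp, 3 to 7 higher and 10 to 17 lower from 10 to 12 dpp, 3 to 4 higher and 8 to 14 lower from 14 to 16 dpp, 10 to 16 higher and 19 to 28 lower from 16 to 18 dpp, 0 to 3 usage calls and 5 to 6 decay share calls. The 2 usage calls were 0 without mouse 4 at 10 dpp, and 1 without mouse 2 at 8 dpp or mouse 5 at 10 dpp. Adult means at most 0.5 of those at 18 dpp numbered 23 to 26.

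The replicate numbers did not pair the mice. With the replicate number as a block, 53 genes differed among ages, 20 were higher and 29 lower from 8 to 18 dpp, 0 and 0 from 8 to 10 dpp, 5 and 15 from 10 to 12 dpp, 0 and 0 from 12 to 14 dpp, 4 and 9 from 14 to 16 dpp, and 14 and 22 from 16 to 18 dpp, with 2 usage calls and 6 decay share calls.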
